A study of Mus musculus with 6 samples.

Results

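The circadian clock genes Per1, Per2, Per3, Cry1, Cry2, Nr1d1, Nr1d2, Arntl, Clock and Dbp were taken by symbol from a table of read counts per gene in Neuro2a cells, an established mouse neuroblastoma line. All 10 symbols were found among the 24391 genes of the table. Poly(A) RNA was sequenced with a stranded kit from 3 control samples given vehicle (0 mM D-serine) and 3 samples given 5 mM D-serine, an amino acid that acts as a co-agonist at NMDA receptors. For the 18 h of treatment both groups were in a changed medium, written D-MEM(-SG) in the labels, with 10% fetal bovine serum. The labels do not say whether libraries of a group came from separate cultures, so p-values measure the spread between these libraries, which may be technical.

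The mammalian clock is a loop of transcription and repression that runs in most cells, including cells in culture. The proteins of Arntl (BMAL1) and Clock pair and activate genes with E-box elements, among them the Per and Cry genes, whose proteins accumulate and repress that pair. A further loop adjusts Arntl itself, through ROR activators and the REV-ERB repressors encoded by Nr1d1 and Nr1d2, which compete for the same DNA element, and PAR bZIP factors such as the protein of Dbp act through D-box elements. In a running clock the arms of the loop peak at different times of day, and serum or a change of medium can set the phase in cultured cells. A single time point was sampled here, so a shift in phase and a change in mean level cannot be told apart. In bulk RNA, neither can fewer cells of a type and less RNA per cell.

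Of the 10 clock genes, 4 fell with D-serine and none rose. The genes that fell were Cry1, Cry2, Per2 and Arntl, each by 10.6% to 13.2%, so that they came from both the repressing and the activating side of the loop. Clock, the partner of Arntl, had a difference of similar size that missed the threshold, and Per1, Per3, Nr1d1, Nr1d2 and Dbp did not pass the test. Outside the 10, the E-box repressor genes Bhlhe40 and Bhlhe41 rose. The other 6 loop transcription factors tested did not pass and had estimates below 0. Among all genes tested, 9.74% passed the threshold, with 4.9% lower and 4.84% higher with D-serine. The threshold was an adjusted p under 0.05 in edgeR's quasi-likelihood test, with Benjamini-Hochberg adjustment over 13366 genes.

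**Figure D1:**
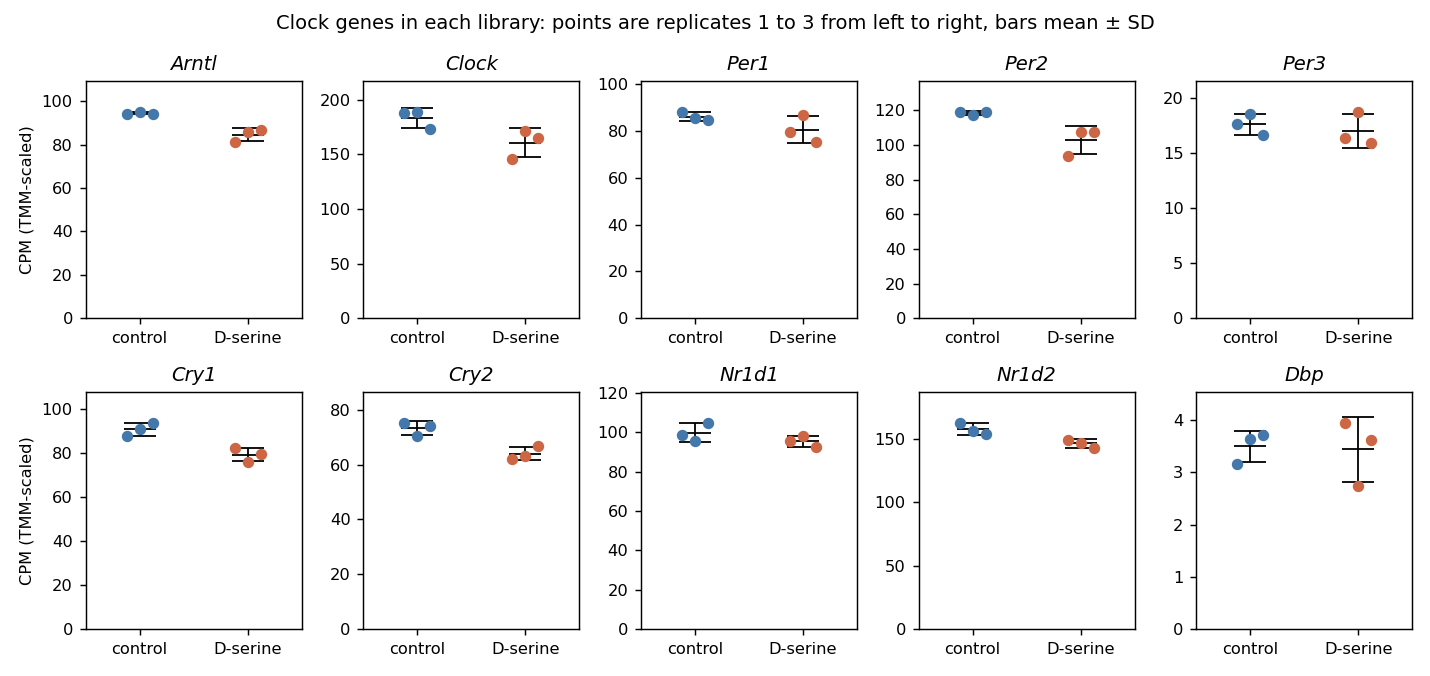
Level of the 10 clock genes in each library in CPM (counts scaled to library size with TMM factors), control in blue and D-serine in orange, with the mean ± SD (n = 3). Per2, Cry1, Cry2, Arntl, Clock and Nr1d2 had no overlap between groups, whereas the points of Per1, Per3, Nr1d1 and Dbp overlapped. Among all tested genes, 32.9% had no overlap.

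Libraries held 32518483 to 40024265 counts. D-serine replicate 1 stood apart, with a chi-square statistic per degree of freedom of 13.9 and 17.7 against the other D-serine libraries, where pairs of the remaining libraries within a group gave 3.88 to 6.54. Its counts also had the steepest trend on gene length, with a slope of -0.072 log2 CPM per log2 base against -0.0040 to 0.036 in the other libraries. Of 11 neuroblastoma and sympathoadrenal markers, 10 were expressed highly enough to be tested. Hand2, a transcription factor of the sympathetic lineage, lay between 239 and 261 CPM, while the neurofilament gene Nefl had at most 2 counts in any library. Tubb3 (log2 fold change 0.25, edgeR adjusted p = 0.0148) and Mycn (0.15, adjusted p = 0.0475) were the markers past the threshold, both higher with D-serine. The summed level of the 11 markers was 1226 to 1299.9 CPM in control libraries and 1344 to 1460.03 CPM in treated ones, and its part in the results on clock genes was not tested. Tubb3 alone lay between 467 and 624 CPM. Of the 10 tested markers, 6 had a log2 fold change above 0 and 4 below. The markers Th and Dbh had at most 2.96 and 1.94 CPM. Summed markers of fibroblasts lay between 4.61 and 6.90 CPM over all libraries, those of endothelium between 3.13 and 4.03 CPM, of glia between 0.930 and 2.96 CPM, and of immune cells between 0.618 and 1.61 CPM. Col3a1 had no count in any library.

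Short stretches around clock elements near the annotated starts are shown because clock proteins are known to bind such letters. They come from RefSeq promoter windows of GRCm38.p6, each running from 250 bases before a start to 50 after it, and 9 of the 10 genes had at least 1 of 13 windows. Per2 was the exception. Capitals mark the match, and each line runs 5′ to 3′ on the gene's strand.
Cry1 E-box, chr10:85185089-85185134, minus strand: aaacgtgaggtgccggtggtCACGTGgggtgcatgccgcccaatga
Per1 E-box, chr11:69098763-69098808, plus strand: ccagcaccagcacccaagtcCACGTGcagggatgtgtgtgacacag
Cry2 variant E-box, chr2:92434210-92434255, minus strand: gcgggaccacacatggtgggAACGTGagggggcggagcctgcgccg
Nr1d1 variant E-box, chr11:98775380-98775425, minus strand: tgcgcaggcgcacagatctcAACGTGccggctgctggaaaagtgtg
Per1 D-box, chr11:69098905-69098952, plus strand: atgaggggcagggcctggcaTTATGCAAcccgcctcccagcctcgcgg
Per3 D-box, chr4:151044843-151044890, minus strand: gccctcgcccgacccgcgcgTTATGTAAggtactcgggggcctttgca
Per3 D-box, chr4:151044796-151044843, minus strand: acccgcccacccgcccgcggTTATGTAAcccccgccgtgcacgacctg
Arntl ROR element core, chr7:113207531-113207557, plus strand: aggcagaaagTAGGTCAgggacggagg

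The E-box CACGTG was searched on both strands and found in windows of Cry1 and Per1, against 7.15% of all 32851 windows in the table. Its variant CACGTT, which reads AACGTG on the other strand, was found for Cry1, Cry2 and Nr1d1, against 4.68% of all windows. In Cry1 it lay 79 bases before the start and did not overlap the E-box, 60 bases before it. The D-boxes TTATGTAA and TTATGCAA were found for Per3 and Per1, against 1.66%, and the ROR cores TAGGTCA and TGGGTCA for Arntl alone, 30 bases after its start, against 6.45%. The cyclic AMP element TGACGTCA was in none of these windows and in 1.79% of all. Of the 9 clock genes with a window, 2 had an E-box, 3 the variant, 2 a D-box and 1 a ROR core. Of all 27025 genes with a window, the numbers were 2187, 1470, 534 and 1987. No motif of those searched was found in the windows of Nr1d2, Clock and Dbp. These matches describe letters in a window and not binding. Among the genes that fell, Cry1 had an E-box and a variant E-box, Cry2 a variant E-box and Arntl a ROR core. Per2, which also fell, had no window. Among those that did not pass, Per1 had an E-box and a D-box, Nr1d1 a variant E-box and Per3 2 D-boxes. Outside the 10, Bhlhe41, which rose, had an E-box 153 bases before its start, and Bhlhe40 had no window. Whether the motifs go with the changes was not tested.

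The activators come first. Arntl (chromosome 7, 120350979 to 120457640, plus strand, in the deposited coordinates, whose build the table does not name) had 94.08, 95.03 and 94.27 CPM in control replicates 1 to 3 and 81.1, 85.9 and 86.5 CPM in D-serine replicates 1 to 3. All 3 treated libraries lay below all 3 controls, and the controls were nearly identical. Arntl fell by 10.6%, from 94.5 ± 0.50 to 84.5 ± 2.98 CPM (mean ± SD of 3 libraries; log2 fold change -0.16 ± 0.046 SE, adjusted p = 0.0449 by edgeR). It lost its call in 8 of 16 alternative ways of processing, with a highest adjusted p of 0.154, and without D-serine replicate 1 the values were -0.13 and 0.0501.

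Clock (chromosome 5, 76638893 to 76733817, minus strand) had 188, 189 and 173 CPM in the control libraries against 146, 171 and 165 CPM in the treated ones. The groups did not overlap, but D-serine replicate 1 was far below its fellows. The log2 fold change was -0.19 with a 95% interval of -0.32 to -0.064 and an edgeR adjusted p of 0.0581. With 9925 exonic bases Clock is the longest of the 10 genes. With each library's trend on gene length removed, its log2 fold change was -0.056 (adjusted p = 0.280), and without D-serine replicate 1 it was -0.13 (adjusted p = 0.0497). With both changes, a setting added after seeing the data, it was -0.064 (edgeR adjusted p = 0.246). Clock was called in 4 of 16 alternatives.

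Of the repressors, Cry1 had the smallest p of the 10 genes. It encodes a cryptochrome, which binds the activator pair directly. Cry1 (chromosome 10, 84594445 to 84647799, minus strand) had 87.8, 90.9 and 93.8 CPM in the control libraries against 82.1, 76.1 and 79.7 CPM in the treated ones, without overlap. It fell by 12.7%, from 90.9 ± 3.0 to 79.3 ± 3.0 CPM (mean ± SD of 3 libraries; log2 fold change -0.20 ± 0.049 SE, adjusted p = 0.0279 by edgeR). Removal of the length trend left -0.20 with an adjusted p of 0.0044, and omission of D-serine replicate 1 gave -0.22 with an adjusted p of 0.0042. Cry1 was called in 9 of 16 alternatives, and omission of any 1 of the other libraries lost the call, with adjusted p-values of 0.060 to 0.111.

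The other cryptochrome gene, Cry2 (chromosome 2, 92243804 to 92274226, minus strand), had 75.3, 70.4 and 74.2 CPM in the control libraries against 62.1, 63.1 and 66.9 CPM in the treated ones. These values did not overlap either, and the fall was close in size to that of Cry1, at 12.6% (log2 fold change -0.19 ± 0.051 SE, adjusted p = 0.0334 by edgeR). Cry2 was called in 8 of 16 alternatives. Without D-serine replicate 1 the log2 fold change was -0.17 (adjusted p = 0.0297), and omission of any 1 of the other libraries lost the call, with adjusted p-values of 0.059 to 0.129. Cry2 shares 149 of its exonic bases, 3.72% of its length, with D930015M05Rik on the opposite strand, which had 205 counts in all 6 libraries together. Cry2 itself had 2319 to 2762 counts in each library.

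Among the period genes, whose proteins carry the repressor complex into the nucleus, Per2 differed beyond the threshold. Per2 (chromosome 1, 93312559 to 93355905, minus strand) had 119, 117 and 119 CPM in the control libraries against 93.4, 107 and 107 CPM in the treated ones. Controls were tight, and D-serine replicate 1 was the lowest of the 6 libraries. Per2 fell by 13.2%, from 118 ± 1.10 to 103 ± 8.07 CPM (mean ± SD of 3 libraries; log2 fold change -0.20 ± 0.055 SE, adjusted p = 0.0367 by edgeR). Without D-serine replicate 1 the log2 fold change was -0.14 (adjusted p = 0.0261). Per2 was called in 10 of 16 alternatives, with a highest adjusted p of 0.112, and lost its call without any 1 control library or D-serine replicate 3. With the length trend removed and without D-serine replicate 1, a setting added after seeing the data, its log2 fold change was -0.10 (adjusted p = 0.0781).

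Per1, a period gene whose transcription responds to cyclic AMP and glucocorticoid signals (chromosome 11, 68912458 to 68923459, plus strand), had 88.0, 85.5 and 84.5 CPM in the control libraries against 79.3, 86.8 and 75.4 CPM in the treated ones. D-serine replicate 2 lay among the controls, and the log2 fold change of -0.096 had a 95% interval of -0.22 to 0.024 (edgeR adjusted p = 0.279). Per3 (chromosome 4, 150377764 to 150418774, minus strand), which is less abundant, had 17.6, 18.5 and 16.6 CPM in the control libraries against 16.3, 18.7 and 15.9 CPM in the treated ones. Its log2 fold change was -0.052, with an interval of -0.23 to 0.13. The groups of both genes overlapped, and whether Per1 or Per3 differs from Per2 in its response was not tested.

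Nr1d1 and Nr1d2 encode REV-ERB alpha and beta, heme-binding receptors that repress Arntl. Nr1d1 (chromosome 11, 98629246 to 98636691, minus strand) had 98.9, 95.8 and 105 CPM in the control libraries against 95.7, 98.1 and 92.3 CPM in the treated ones. The groups overlapped, and the log2 fold change was -0.066 with a 95% interval of -0.17 to 0.040 (edgeR adjusted p = 0.408). Nr1d2 (chromosome 14, 19036570 to 19071620, minus strand) had 163, 156 and 154 CPM in the control libraries against 150, 147 and 143 CPM in the treated ones. Although every treated library was below every control, the difference was small, at -0.11 (interval -0.20 to -0.013), and did not pass the adjusted test (adjusted p = 0.131). Without D-serine replicate 1 it was -0.12, with an adjusted p of 0.0491, and this was its 1 call in 16 alternatives. With the length trend also removed, it was -0.099 (edgeR adjusted p = 0.0716).

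Dbp (chromosome 7, 52960617 to 52965573, plus strand), an output gene driven directly by the activator pair, was the least abundant member. It had 101 to 155 counts in each library, or 3.16, 3.64 and 3.71 CPM in the control libraries against 3.95, 2.75 and 3.62 CPM in the treated ones. D-serine replicates held both the highest and the lowest value of the 6 libraries. The log2 fold change of -0.026 had an interval of -0.40 to 0.34, so changes of the size seen in Cry1 or Per2 in either direction were not detectable for Dbp at this depth. Of its exonic bases, 539 (32.1%) are shared with Sphk2 on the opposite strand, which had 6843 counts over the 6 libraries. The strand setting of the counting is not given in the sources used here, so the counts of Dbp are uncertain.

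**Figure D2:**
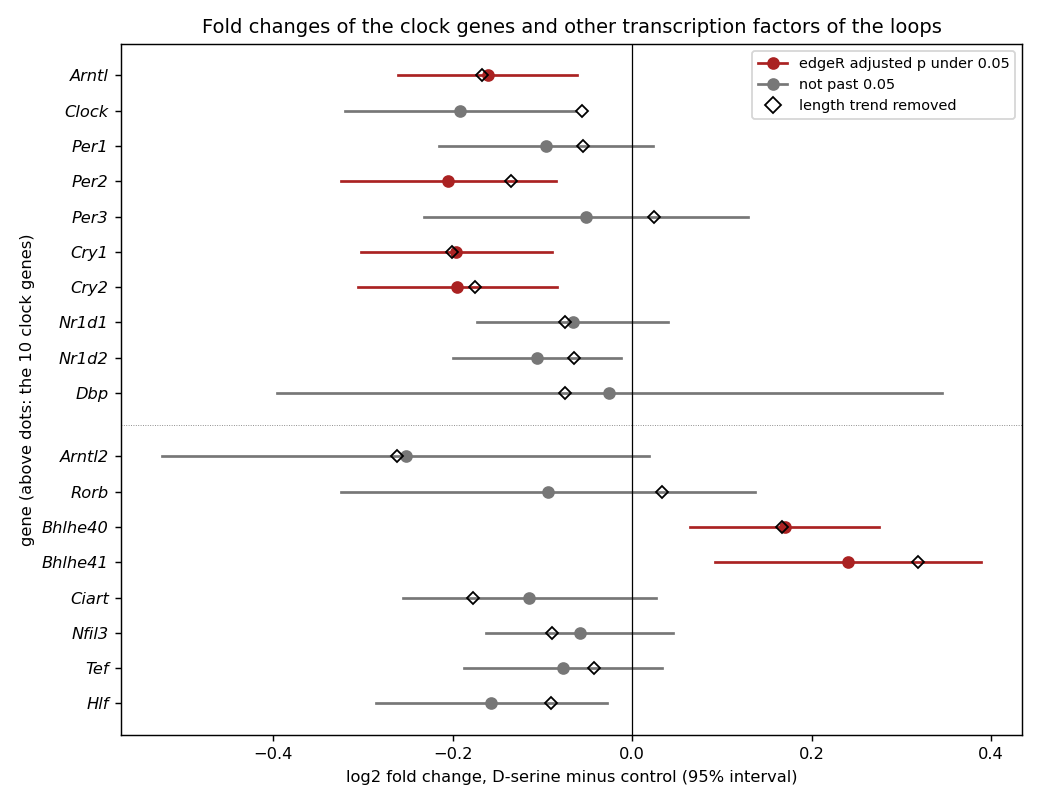
Log2 fold change (D-serine minus control, horizontal axis) with its 95% interval for the 10 clock genes above the dotted line and 8 other loop transcription factors below it, red where the edgeR adjusted p was under 0.05. Diamonds give the value with each library's length trend removed, which moved Clock from -0.19 to -0.056 and Cry1 little.

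The fitted log2 fold change was below 0 in 10 of the 10 genes, where 48.5% of all tested genes were below 0. In 8 of the 17 other settings tried, 1 of the 10 was above 0, Dbp with upper quartile scaling, library totals or omission of control replicate 2, control replicate 3 or D-serine replicate 2, or Per3 in the 3 settings with the length trend removed. The median over the 10 was -0.13, against 0.0053 over all tested genes. It was -0.075 with the length trend removed, where all tested genes had a median of 0.0040, and the 10 genes had a median length of 4320.5 bases against 2834.5 bases. The 3 treated and 3 control libraries were fully separate for 6 of the 10 genes, and for 32.9% of all tested genes. The lowest of the 6 libraries was a D-serine library for each of the 10, and it was D-serine replicate 1 for 4 of them. The share of all tested genes with a D-serine library lowest was not counted, so how unusual this is cannot be told.

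How many of the 10 passed the threshold depended on single libraries and on scaling. It was 0 without control replicate 1, control replicate 2, control replicate 3 or D-serine replicate 3, where 125, 68, 453 and 291 of all genes passed. It was 5 without D-serine replicate 1, where 1699 of all genes passed, and 3 without D-serine replicate 2, where 1566 did, against 1302 with all libraries. The 5 were Per2, Cry1, Cry2, Nr1d2 and Clock, with 3 of the reported 4 genes among them. The 3 were Per2, Arntl and Clock, with 2 of the reported 4 among them. Upper quartile scaling left Per2 (adjusted p = 0.0495) and library totals left Cry1 (adjusted p = 0.0487) as the 1 gene called. With those scalings the calls over all genes were split into 914 higher and 412 lower, and into 944 and 412, rather than 647 and 655. The DESeq2 Wald test called 1645 of all genes and 5 of the 10, the reported 4 and Clock (adjusted p = 0.0244).

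**Figure D3:**
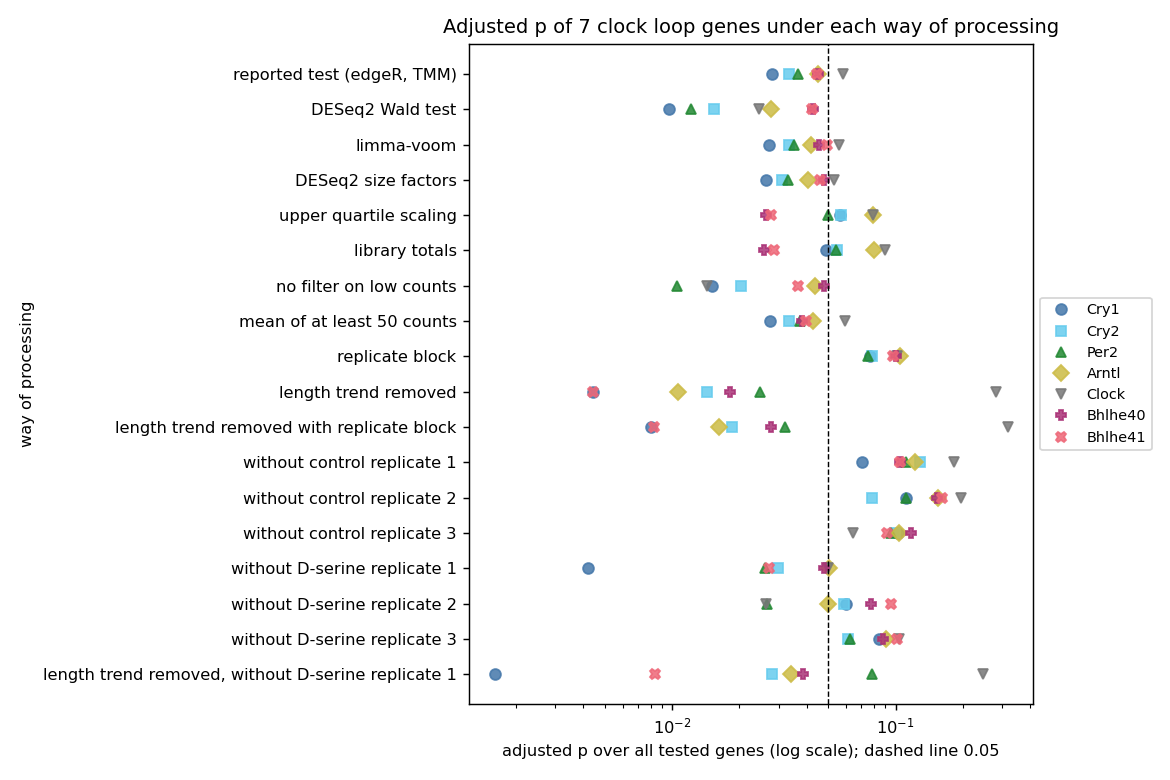
Adjusted p over all tested genes (log axis, dashed line at 0.05) of 7 genes of the clock loops under the reported test and 17 other settings. Cry1, Cry2, Per2 and Arntl lay to the right of the line whenever a control library or D-serine replicate 3 was left out, as did Bhlhe40 and Bhlhe41.

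Per kilobase of exon, levels fell into 3 ranges in control. Nr1d1 (36.1 ± 1.68 CPM per kilobase), Nr1d2 (34.0 ± 1.0), Arntl (32.5 ± 0.17) and Cry1 (30.1 ± 1.0) were the most abundant (mean ± SD of 3 libraries). Per2 followed at 20.3 ± 0.19, and then Clock, Cry2 and Per1 at 18.5 ± 0.89, 18.3 ± 0.64 and 18.3 ± 0.39, whose libraries overlapped from each gene to the next. Per3 (2.91 ± 0.16) and Dbp (2.09 ± 0.18) were far lower. The libraries of Nr1d1 and Nr1d2 overlapped as well, while the other neighbours in this order were separate. With D-serine the order was the same except among Clock, Cry2 and Per1. Per2 then overlapped Per1, and Nr1d1 no longer overlapped Nr1d2.

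**Figure D4:**
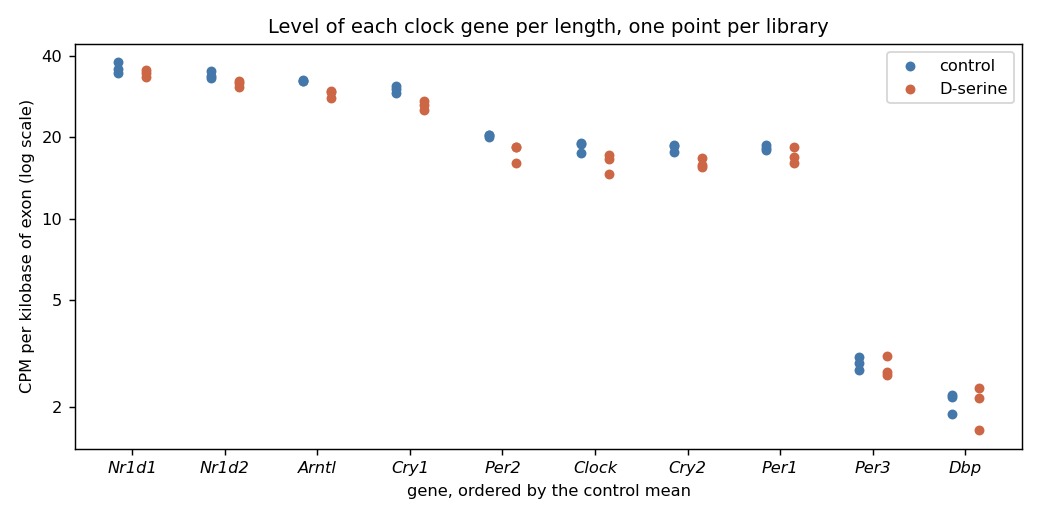
Level of each clock gene in CPM per kilobase of exon (log axis), 1 point per library, ordered by the control mean. Nr1d1, Nr1d2, Arntl and Cry1 lie at or above 25.2 in every library, and Per3 and Dbp at or below 3.09.

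The other transcription factors of the loops were a list of 10 genes, of which 8 were tested. In it 2 genes rose, none fell, and 6 did not pass the test, where 4.84% of all tested genes were higher with D-serine. Npas2, a relative of Clock, and Rora, a ROR-family activator, had at most 2 counts in any library, so neither was tested. The median log2 fold change of the 8 was -0.085.

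Bhlhe40 and Bhlhe41 encode DEC1 and DEC2, which bind E-boxes and repress genes driven by BMAL1 and CLOCK. Bhlhe40 had 55.1, 53.7 and 53.6 CPM in the control libraries against 61.8, 61.6 and 59.3 CPM in the treated ones, and it rose by 12.5% (log2 fold change 0.17 ± 0.049 SE, adjusted p = 0.0449 by edgeR). Bhlhe41 had 19.3, 18.3 and 19.3 CPM in the control libraries against 21.7, 23.5 and 22.1 CPM in the treated ones, and it rose by 18.2% (log2 fold change 0.24, SE 0.069, adjusted p = 0.0442). Neither gene overlapped between groups. Leaving out any 1 library other than D-serine replicate 1 took both above the threshold, with highest adjusted p-values of 0.154 and 0.161. Bhlhe40 shares 118 exonic bases with 0610040F04Rik on the opposite strand, which had 16 counts over all libraries.

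The other 6 loop factors did not pass the test and had estimates below 0. Arntl2, the paralog of Arntl, had a log2 fold change of -0.25 (95% interval -0.52 to 0.018). Hlf, a PAR bZIP factor like Dbp, had -0.16 (edgeR adjusted p = 0.110). Tef, the third factor of that family, had 81.5 ± 3.76 CPM in the control libraries against 77.3 ± 2.55 CPM in the treated ones (mean ± SD of 3 libraries). Nfil3, the repressor at D-boxes and per exon length the most abundant gene of this list, had 79.0 ± 1.73 CPM against 75.9 ± 2.64 CPM. Ciart, a repressor of the activator pair, had a log2 fold change of -0.11, and Rorb, a ROR-family receptor, had -0.094 (above 0 with the length trend removed).

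Kinases, ubiquitin ligases, a deubiquitinase and a deacetylase that act on clock proteins formed a list of 12, of which 11 were tested and 0 passed the threshold in edgeR. At an unadjusted p under 0.05 there were 3, where 28.2% of all tested genes were under it, and DESeq2 and limma-voom also called 0. Removal of the length trend called 2 of the list and 2043 of all genes. Omission of D-serine replicate 1 called 2 of the list and 1699 of all genes. Csnk1d, the casein kinase that phosphorylates PER proteins and per exon length the most abundant gene of the list, had 411 ± 8.23 CPM in the control libraries against 389 ± 16.4 CPM in the treated ones (mean ± SD of 3 libraries). The median log2 fold change of the list was -0.0018.

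Of 12 cofactors of clock protein complexes, all tested, 1 was lower and 11 did not pass. Among all tested genes, 9.74% passed the threshold and 4.9% were lower with D-serine. Log2 fold changes of the list ran from -0.34, in a gene that did not pass, to 0.090, with a median of -0.088. Removal of the length trend called 4 of the list and 2043 of all genes. Omission of each library in turn called 0 to 4 of the list. Wdr5, a subunit of histone H3 lysine methyltransferase complexes, had 249, 242 and 244 CPM in the control libraries against 211, 215 and 208 CPM in the treated ones. It fell by 13.8% without overlap between groups (log2 fold change -0.21 ± 0.040 SE, adjusted p = 0.0115 by edgeR), and lost its call without control replicate 1, control replicate 2 or D-serine replicate 3, with a highest adjusted p of 0.0604. Ddx5, an RNA helicase and per exon length the most abundant gene of the list, had 1596 ± 31.8 CPM in the control libraries against 1699 ± 38.0 CPM in the treated ones (mean ± SD of 3 libraries; log2 fold change 0.090, adjusted p = 0.127).

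Neither the 9 clock output genes nor the 10 genes of the input pathways (CREB, glucocorticoid and serum response) had a member past the threshold in edgeR. At an unadjusted p under 0.05 there were 1 output gene and 5 input genes, beside the 28.2% of all tested genes, and DESeq2 and limma-voom called 0 in each list. Removal of the length trend called 2 output genes, 2 input genes and 2043 of all genes. Noct (Ccrn4l in the table), which encodes nocturnin and was the most abundant output gene per exon length, had 645 ± 29.8 CPM in the control libraries against 663 ± 38.8 CPM in the treated ones (mean ± SD of 3 libraries). Fkbp5, a target gene of the glucocorticoid receptor and per exon length the most abundant of the input list, had 128 ± 7.35 and 121 ± 1.38 CPM, and the receptor gene Nr3c1 had 137 ± 1.98 and 129 ± 6.66 CPM. The median log2 fold changes were 0.0089 for the outputs and -0.099 for the inputs.

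Cry1 was compared with 9796 other genes with a mean of at least 5 CPM by Pearson's r of log2 CPM over the 6 libraries. Genes with symbols such as clone names, Gm or LOC numbers, Mir or mt- were left out before this ranking. The 3 most alike were Necap2 (r = 0.998), Slc29a1 (0.995) and Adrm1 (0.994), each lower with D-serine (log2 fold changes of -0.21, -0.18 and -0.20, edgeR adjusted p = 0.0167, 0.0245 and 0.0217). These values describe 6 libraries that share their scaling and the difference between groups.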

How the data were processed

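The authors deposited raw counts per gene for 6 libraries, with summed exon lengths that equalled the merged exons in 100% of genes. The submitters' processing notes name bcl2fastq, Trim Galore, HISAT2, featureCounts, Subread and DESeq2, with the builds GRCm38 and mm10. Of 23128 genes matched by symbol to RefSeq GRCm38, 313 had the same start, so coordinates are given as deposited, 1-based, with the build unnamed. The strand setting is not given in the sources used here.

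Counts were tested with edgeR 4.0.16 in R 4.3.3 (filterByExpr, TMM scaling, quasi-likelihood F test, two-sided, no covariate). The procedure was tested on simulated data, drawn without a length trend or a library that stood apart, so that test does not cover these features. CPM uses TMM-adjusted library sizes. SE is the log2 fold change divided by the square root of F, and intervals are 95% intervals from it. Alternatives were DESeq2 1.42.0, limma-voom (limma 3.58.1), other scalings and filters, a replicate block, removal of each library's length trend (a spline with 5 degrees of freedom, centred) and omission of each library. Removal of that trend without D-serine replicate 1 was added after seeing the data.

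The 10 genes, the lists and the rules were chosen with earlier results of these data known. All 10 were named, with every called gene and the most abundant gene per exon length of each other list, and the 3 genes most like the member with the smallest p. The list genes Ciart, Tef, Nr3c1, Hlf, Rorb, Arntl2, Npas2 and Rora and the markers were named after their values were seen. Some genes of the lists and markers are not reported here and were left out of their counts, while the test across all genes kept them.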

Additional observations from a re-analysis of the deposited data

How the results depend on the processing

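Of the 4 clock genes called, all 4 were also called by the DESeq2 Wald test, limma-voom, DESeq2 size factors, testing without a filter, testing genes with 50 counts or more on average, and removal of the length trend with or without the block. Upper quartile scaling and library totals each left 1 clock gene and a median log2 fold change of -0.10. With no filter, every gene with a count was tested rather than the 13366 of the reported test, so its total has a larger base. In that setting 1867 genes passed over all, and 1 modifier of clock proteins and 4 cofactors did. With the length trend removed, 2043 genes passed over all, as did 2 modifiers, 4 cofactors, 2 output genes and 2 input genes, and the median of the clock genes was -0.075. Together with the replicate block this gave 1900 genes over all, a median of -0.079, 2 modifiers, 4 cofactors, 2 output genes and 1 input gene. Without D-serine replicate 1 and with the length trend removed, 1864 genes passed over all and the median was -0.10, with 2 modifiers, 2 cofactors and 2 output genes.

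When each library was omitted in turn, between 68 and 1699 of all genes passed, and from 0 to 5 clock genes, from 0 to 2 other loop factors, from 0 to 2 modifiers and from 0 to 4 cofactors, with medians for the clock genes from -0.16 to -0.13. The cause was not tested.

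With the replicate block there were 298 genes past the threshold, 0 clock genes, 0 other loop factors and 0 cofactors. Same-numbered libraries did not deviate together from their group means (correlations across genes of -0.069, 0.020 and -0.019), so the numbers were not taken to pair the libraries. Depth limits Dbp most, with 101 to 155 counts per library.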
